A study of Mus musculus with 2 samples.

Results

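The constitutive proteasome subunits were taken as all rows of the count matrices whose symbol is Psma, Psmb, Psmc or Psmd and a number, without the immunoproteasome genes Psmb8, Psmb9 and Psmb10. The rule used no measured value and found 36 of 26124 genes. They are 8 genes for α subunits (Psma), 8 for β subunits (Psmb), 6 for ATPases (Psmc) and 14 for the remaining subunits and helpers of the regulatory particle (Psmd). All 36 were found in the GENCODE M21 annotation of the GRCm38 build and lie on 16 chromosomes. The samples were 2 droplet libraries of cells that anti-F4/80 beads had bound from the spleen, made with a kit that counts the 3′ ends of transcripts as unique molecular identifiers (UMIs), after mature red cells had been lysed. Each library came from 1 untreated mouse aged 12 to 16 weeks. The mouse labelled SCD, for sickle cell disease, was of the Berkeley line, homozygous for Hbatm1Paz and Hbbtm1Tow, which remove the mouse globin genes, and homozygous for the human transgene Tg(HBA-HBBs)41Paz. The mouse labelled wild-type was a control that also lacked Hba (homozygous Hbatm1Paz), with 1 Hbbtm1Tow allele and the transgene in the hemizygous state. It was therefore no mouse without transgenes.

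The proteasome is the protease that takes apart proteins marked with ubiquitin in the cytosol and nucleus. Its 20S core is a barrel of α rings, which gate the entry, around β rings, of which Psmb5, Psmb6 and Psmb7 hold the active sites. The 19S regulatory particle binds ubiquitin chains, removes them and unfolds the protein with a ring of Psmc ATPases. In maturing red cells the ubiquitin and proteasome system clears proteins that the erythrocyte no longer needs, and in macrophages interferons exchange the catalytic subunits for Psmb8, Psmb9 and Psmb10.

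The wild-type-labelled library held 145953464 UMIs in 24144 barcodes and the SCD-labelled library 73986356 in 15442, of which 19419 and 12280 cells were kept, with medians of 4115 and 4570 UMIs. The libraries shared 107 barcodes, 65 of them among kept cells. The β-globin gene Hbb-bs, which checks the labels, was at 141 CPM (counts scaled to a total of 1000000 UMIs) in erythroid-like cells of the wild-type-labelled library and at 61599.7 CPM in those of the SCD-labelled library, although the SCD label names a homozygous Hbb deletion and the other a heterozygous one. The α-globin gene Hba-a1 was at 26669.5 and 31236 CPM, although both labels name a homozygous Hba deletion. The samples are therefore named as the labels have them, and a direction between them is a direction between those labels. Whether the 2 labels were exchanged was not tested. A library stood for 1 mouse and a condition for 1 library, so no value has a replicate and the conditions were not tested against each other. Intervals in parentheses are 95% intervals, exact Poisson for a level and exact conditional for a ratio of 2 counts, and cover counting error only.

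Cells were grouped by clustering without the proteasome genes, the hemoglobin genes or the pathway genes named further on, and clusters were named "X-like" from marker lists. RPM-like cells held markers of red pulp macrophages, and EBI-like cells those of red pulp macrophages together with erythroid ones, as in erythroblastic islands, where a macrophage carries maturing red cells. In the wild-type-labelled library the 4826 RPM-like cells lay mostly in clusters led by Marco and Cd5l (3635 cells) and by Abcc5 and Mertk (1130 cells). Of the SCD-labelled library 1582 of 1637 RPM-like cells lay in a cluster led by Rgs1 and Adamdec1. The EBI-like cells (2450 and 649) were likewise split by library, with 607 of the 649 in a cluster led by Hbb-bs and Hbb-bt. A cluster mostly of 1 library may be that library rather than a type, and this holds for every value of RPM-like and EBI-like cells.

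Of the subunits, 5 hold the letters of an antioxidant response element in the stretch that RefSeq gives around the gene start (250 bases before to 50 after, GRCm38.p6). The motif was searched as TGACNNNGC on both strands because NFE2L1, the factor that raises proteasome genes when the proteasome is blocked, binds such elements. It is shown for 3 of the 5 subunits, the assembly chaperone Psmd9 and the ATPase Psmc6 of the regulatory particle and the catalytic Psmb5. In these 3 the printed bases lie wholly before the RefSeq start, and the matches of the other subunits are not shown. The sequences follow on the strand that carries the motif, with the motif in capitals.
Psmd9, chr5:123228149-123228177, plus strand: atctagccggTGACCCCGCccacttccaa
Psmc6, chr14:45329587-45329615, minus strand: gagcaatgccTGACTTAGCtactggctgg
Psmb5, chr14:54618024-54618052, minus strand: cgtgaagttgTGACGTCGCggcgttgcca
The stretch of Psmd9 lies inside the GENCODE span of the gene given further on, which begins at chr5:123169413. The motif began 31 bases before the RefSeq start of Psmd9, 227 before that of Psmc6 and 47 before that of Psmb5. It was found in 5 of the 29 subunits for which RefSeq gave a stretch (17.2%) and in 14.0% of 27025 genes. The CCAAT box, searched as CCAAT on both strands, was found in 12 of the 29 (41.4%) and in 41.1% of all genes. A match is a description of letters and not a site of binding, and the share among the subunits was close to that of all genes.

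Some counts may hold reads of a neighbour. Psmd1, Psmd14 and Psma2 overlap another listed gene on the same strand, and 7 subunits overlap one on the opposite strand, among them Psmd9 (with Hpd), Psmd5 (with Cutal), Psmc3 (with Slc39a13) and Psmb7 (with Nek6). Of the immunoproteasome genes, Psmb9 overlaps Tap1 on the opposite strand. Whether the counting used the strand is not given in the sources used here. The annotation also names 4 pseudogenes of the subunits, none of which is a row of the matrices.

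Every class held transcripts of the proteasome, and its summed level lay between 2502 and 3829 CPM over the 10 named classes of the wild-type-labelled library. In that library the sum of the 36 genes was at 3829 CPM (3807 to 3851) in erythroid-like cells and 3778 CPM (3732 to 3825) in Ly6c-high monocyte-like cells, whose intervals overlapped. It was at 3399 CPM (3335 to 3463) in cDC2-like and 3379 CPM (3296 to 3464) in Ly6c-low monocyte-like cells, again with overlapping intervals. The cDC2-like class is a single cluster whose leading genes include Cd209a and Clec10a of the cDC2 list, but also Ace of the Ly6c-low and Ccr2 of the Ly6c-high monocyte list and Cx3cr1, a receptor that monocytes also carry, so its name is less sure than the others. T lymphocyte-like cells, with only 53 cells, were at 3227 CPM (2957 to 3515), an interval that reached into those of cDC2-like and B lymphocyte-like cells. B lymphocyte-like cells followed at 3027 CPM (2982 to 3072) and RPM-like cells at 2956 CPM (2931 to 2982). The lowest levels were in EBI-like cells at 2834 CPM (2806 to 2863), mature DC-like cells at 2775 CPM (2701 to 2849.8) and neutrophil-like cells at 2502 CPM (2434 to 2572), the first 2 of which overlapped.

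In the SCD-labelled library the Ly6c-high monocyte-like cells were highest, at 3418 CPM (3367 to 3468). The cDC2-like cells at 3088 CPM (3054 to 3122), Ly6c-low monocyte-like cells at 3072 CPM (3020.0 to 3125) and T lymphocyte-like cells at 3002 CPM (2775 to 3242) could not be told apart, and the wide interval of the last also reached classes further down. Erythroid-like cells came after them at 2947 CPM (2884 to 3011), next to B lymphocyte-like cells at 2908 CPM (2876 to 2940.2). RPM-like cells were at 2547 CPM (2511 to 2583), mature DC-like cells at 2523 CPM (2465 to 2582) and EBI-like cells lowest at 2176 CPM (2121 to 2233). Set against the main B lymphocyte-like cluster of the same library, RPM-like cells had 1 of 35 subunits higher by at least 1.5-fold and 0 lower in the wild-type-labelled library, where 21.0% of all genes were higher and 22.8% lower. The higher one was Psma8. Of 34 subunits 0 were higher and 6 lower in the SCD-labelled library, where 24.7% of all genes were higher and 24.2% lower. Every cell uses the proteasome, so no class could serve as a zero for free RNA, and its part in these levels was not tested.

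**Figure D1:**
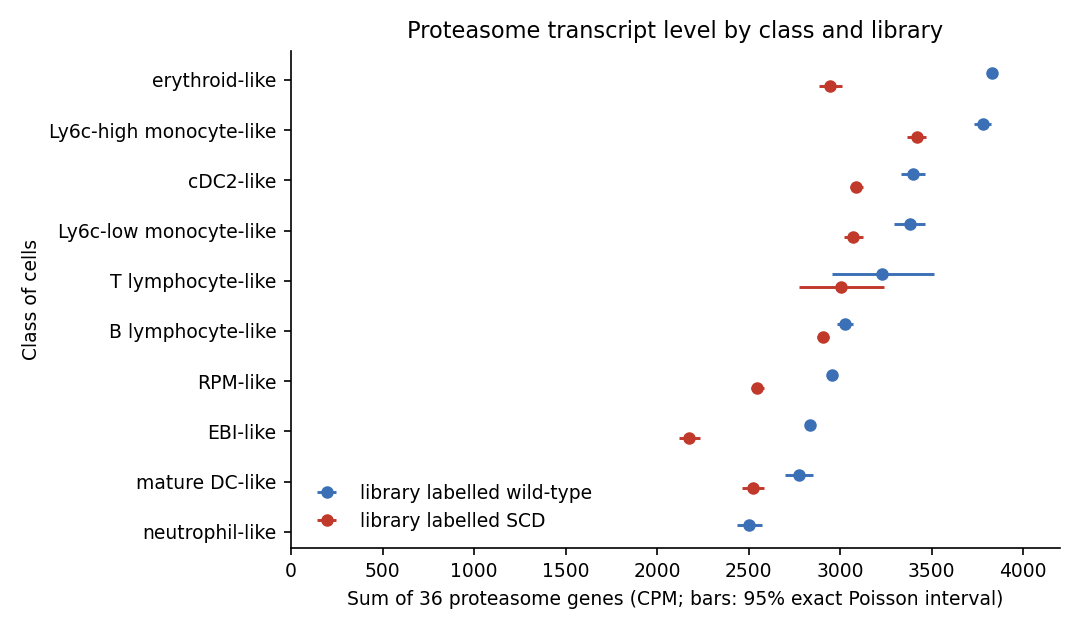
The summed level of the 36 proteasome genes (x axis, CPM) in each class (y axis), with 1 point per library and bars for the 95% exact Poisson interval. The point of the SCD-labelled library lies to the left of the other in each class that has both, and classes with under 50 cells in a library are left out.

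The parts of the complex differed between classes. Genes of the α subunits summed to 1282 CPM in Ly6c-high monocyte-like and 923 CPM in erythroid-like cells of the wild-type-labelled library, while the ATPases were at 439 and 681 CPM. The 2 classes with the highest sums thus differed in opposite directions for the ring that gates the core and the ring that unfolds proteins. Psma7, an α subunit, ranged from 159 CPM in EBI-like to 494 CPM in Ly6c-high monocyte-like cells of that library, and from 112 to 440.1 CPM in the same classes of the SCD-labelled library, its widest range there at 3.9-fold. The catalytic Psmb5 had the widest range in the wild-type-labelled library at 5.2-fold, followed by Psmd12, a lid subunit, at 4.2-fold, but both minima came from T lymphocyte-like cells and rested on 3 and 2 UMIs. In the SCD-labelled library, Psmb5 was next after Psma7 at 3.6-fold, between 26.1 CPM in erythroid-like and 94.2 CPM in Ly6c-high monocyte-like cells. The narrowest ranges were those of Psmd10 (1.4-fold) and Psma6 (1.5-fold) in the wild-type-labelled library and of the ubiquitin receptors Psmd4 and Psmd2 (1.3-fold each) in the SCD-labelled library.

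The subunits known from other tissues were at low levels. Psma8, the α subunit of spermatoproteasomes, had 733 UMIs in all barcodes of both libraries and was at 5.43 CPM (94 UMIs) in RPM-like cells of the wild-type-labelled library and 5.96 CPM (45 UMIs) in those of the SCD-labelled library. Psmb11, the β subunit of the thymus, had 11 UMIs in all barcodes, 5 in kept cells of the wild-type-labelled library and 3 in those of the SCD-labelled library. It had 0 UMIs in RPM-like cells, which allows up to 0.173 CPM in the wild-type-labelled library and 0.397 CPM in the SCD-labelled library when 3 UMIs are taken as the limit of a count of 0.

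Between the libraries, the question was whether the proteasome genes of splenic macrophages differ with the label. The globin levels above went against the labels, so no direction here is given as one of the hemolytic disease. In RPM-like cells the sum was lower in the SCD-labelled library, at 2547 against 2956 CPM, a log2 ratio of -0.22 (-0.24 to -0.19). The median log2 ratio over the 35 subunits with at least 100 UMIs in both libraries together was -0.24, while that over all 10026 such genes was 0.20, so relative to all genes the subunits were at -0.44. With each cell scaled by its scran size factor in place of its total, the log2 ratio of the sum was -0.44 and the median over all genes 0.07. By a ratio of at least 1.5, 1 subunit was higher and 4 were lower, where 24.0% of all genes were higher and 9.49% lower. The share lower among the subunits was close to that of all genes, and the share higher was below it. Within the cluster led by Rgs1 and Adamdec1, which held cells of both libraries, the sum was at 3005 CPM (2685 to 3353) in 61 cells of the wild-type-labelled library and 2541 CPM (2505 to 2577) in 1582 cells of the SCD-labelled library. The clusters that held most RPM-like cells of the wild-type-labelled library lay apart from each other, at 2751 CPM (2717 to 2785) in that led by Abcc5 and Mertk, with a median depth of 7290 UMIs, and at 3182 CPM (3143 to 3220) in that led by Marco and Cd5l, with 1657 UMIs. The gap between them was about as wide as that between the libraries, and the SCD-labelled cluster, with 4162 UMIs, was closer to the deeper one.

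In RPM-like cells the α subunits Psma3 and Psma1 had the highest ratios of the complex. Psma3 (ENSMUSG00000060073, chr12:70974621-70996347) was at 143 (138 to 149) CPM in the wild-type-labelled library and 225 (214 to 236) CPM in the SCD-labelled library, a log2 ratio of 0.65 (0.56 to 0.74). Psma1 stood at 101 and 126 CPM, which is 0.33 (0.21 to 0.44) on the log2 scale. Psma8 came next by ratio, at 0.13 (-0.41 to 0.66), which was -0.24 with scran size factors. Psma5 was lower, at 87.1 against 127 CPM. As a sum the α subunits had a log2 ratio of 0.05 (0.01 to 0.09), which turned to -0.19 with scran size factors, and without Psma3 and Psma1, a choice made after their values were seen, the ratio was -0.21. The sums of the other parts were at -0.30 (-0.36 to -0.24) for the β subunits, -0.42 (-0.49 to -0.36) for the ATPases and -0.32 (-0.35 to -0.28) for the other genes of the regulatory particle.

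The catalytic β subunits Psmb5, Psmb6 and Psmb7 were each lower in RPM-like cells of the SCD-labelled library. The values that follow in this paragraph are also those of RPM-like cells. Psmb5, the chymotrypsin-like subunit, was at 48.9 CPM in the wild-type-labelled library and 39.9 CPM in the SCD-labelled library, a log2 ratio of -0.30 (-0.49 to -0.10). Psmb6, the caspase-like subunit, was at 55.0 and 39.5 CPM (-0.48, -0.67 to -0.29), and Psmb7, the trypsin-like subunit, at 55.2 and 42.6 CPM (-0.37, -0.56 to -0.19). In the regulatory particle the lowest ratios were those of the ATPase Psmc1 (ENSMUSG00000021178, chr12:100110154-100123405), with 134 (128 to 139) and 83.7 (77.3 to 90.5) CPM, and of the ubiquitin receptor Psmd4 (ENSMUSG00000005625, chr3:95032694-95042614), with 182 (175 to 188) and 114 (107 to 122) CPM. Their log2 ratios were -0.67 (-0.80 to -0.55) and -0.67 (-0.78 to -0.56), and that of the ATPase Psmc3 was -0.64 (-0.79 to -0.49). The receptor and scaffold Psmd2 had a ratio of -0.29 (-0.40 to -0.19). The deubiquitinase Psmd14 stood at 42.0 and 43.3 CPM, which is 0.04 (-0.15 to 0.23) on the log2 scale and was -0.27 with scran size factors. Of the chaperones that assemble the base of the regulatory particle, Psmd5 had a ratio of -0.37 (-0.57 to -0.17), Psmd9 of 0.00 (-0.22 to 0.22) and Psmd10 of 0.06 (-0.18 to 0.30), and the scran size factors turned Psmd9 to -0.11 and Psmd10 to -0.18.

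In EBI-like cells the sum was at 2834 CPM in the wild-type-labelled library and 2176 CPM in the SCD-labelled library, a log2 ratio of -0.38 (-0.42 to -0.34). Of the 34 subunits with at least 100 UMIs, 10 were lower by at least 1.5-fold and 0 higher, where 17.0% of all genes were lower and 10.8% higher. Psmb2, a β subunit without an active site, was at 61.4 and 34.4 CPM, which is -0.84 (-1.16 to -0.53) on the log2 scale. Psmd7, the partner of Psmd14 in the lid, was at 63.8 and 35.8 CPM (-0.83, -1.15 to -0.53), and Psmc1 at 118 and 66.5 CPM (-0.82, -1.05 to -0.60). At the other end stood Psma3 (0.24, 0.09 to 0.39), with the ATPases Psmc2 (0.06, -0.24 to 0.35) and Psmc4 (0.06, -0.32 to 0.42), whose intervals included 0. Hemoglobin made up 1.22% of the UMIs of EBI-like cells in the wild-type-labelled library and 11.4% in the SCD-labelled library. With hemoglobin left out of the total, the log2 ratio of the sum was -0.22, and with cells of at least 200 genes kept and clustered anew it was -0.15.

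In erythroid-like cells (4807 and 430) the sum came to 3829 and 2947 CPM and its log2 ratio to -0.38 (-0.41 to -0.35), or -0.25 with hemoglobin left out of the total and -0.66 with cells of at least 200 genes kept and clustered anew. Of 34 subunits 6 were lower by at least 1.5-fold and 0 higher, where 15.1% of all genes were lower and 8.07% higher, so the share lower was near that of all genes. The lowest was Psmb5 (ENSMUSG00000022193, chr14:54614119-54618022), at 55.3 (52.7 to 57.9) CPM in the wild-type-labelled library and 26.1 (20.5 to 32.8) CPM in the SCD-labelled library, a log2 ratio of -1.08 (-1.44 to -0.74). Psmb2 followed with 53.5 and 29.3 CPM (-0.87, -1.21 to -0.55) and Psmd4 with 228 and 135 CPM (-0.76, -0.91 to -0.61). Psma3 (0.10, -0.05 to 0.24) and the assembly chaperones Psmd5 (0.02, -0.15 to 0.19) and Psmd9 (-0.00, -0.21 to 0.20) had the highest ratios, all with intervals around 0.

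In the named classes that are neither macrophage nor erythroid the sum differed less. The unnamed cells, 3534 in the wild-type-labelled and 3260 in the SCD-labelled library, are a mixture and were not compared as a class. Their sums were at 3324 CPM (3300 to 3347) and 2744 CPM (2720 to 2768). Over all kept cells, whose makeup differed between the libraries, 6 of 35 subunits were lower by at least 1.5-fold and 0 higher, where 15.9% of all genes were lower and 26.4% higher. The log2 ratio of the sum was -0.06 (-0.08 to -0.03) in B lymphocyte-like cells and was -0.14 in Ly6c-high and -0.14 in Ly6c-low monocyte-like cells, -0.14 in cDC2-like and -0.14 in mature DC-like cells. In B lymphocyte-like cells 1 of 34 subunits was higher by at least 1.5-fold and 2 were lower, where 12.3% of all genes were higher and 10.4% lower. The higher subunit was the ATPase Psmc4, at 30 and 48.1 CPM (0.68, 0.43 to 0.93). The lower subunits were Psmc1, at 105 and 64.7 CPM (-0.70, -0.86 to -0.54), and Psmd4, at 171 and 110.3 CPM (-0.63, -0.75 to -0.51). In each of the monocyte-like and dendritic classes 2 of 34 subunits were lower by at least 1.5-fold and 0 higher. The shares of all genes lower and higher were 10.3% and 8.77% in Ly6c-high monocyte-like, 6.71% and 10.9% in Ly6c-low monocyte-like, 5.53% and 7.34% in cDC2-like and 12.6% and 10.2% in mature DC-like cells, so the subunits were near or below the shares of all genes. Psmc1 was at 90.4 and 54.9 CPM in Ly6c-high monocyte-like and at 87.5 and 48.4 CPM in mature DC-like cells. Over the 8 classes, which share the same 2 libraries, the log2 ratio of Psmc1 lay between -0.85 and -0.62 and that of Psmd4 between -0.76 and -0.50. That of Psma3 lay between 0.10 and 0.65, and the lowest, in erythroid-like cells, was -0.04 as a mean share per cell. Of the 34 subunits with at least 100 UMIs in every class, 16 were below 0 in all 8 classes and 1, Psma3, above 0. Of all 5678 such genes 14.9% were below 0 and 15.6% above 0 in every class. The 10 macrophage markers, whose RNA can reach other droplets, summed to 10719 CPM in B lymphocyte-like cells of the wild-type-labelled library and 4114 CPM in those of the SCD-labelled library, and their part in these ratios was not tested.

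**Figure D2:**
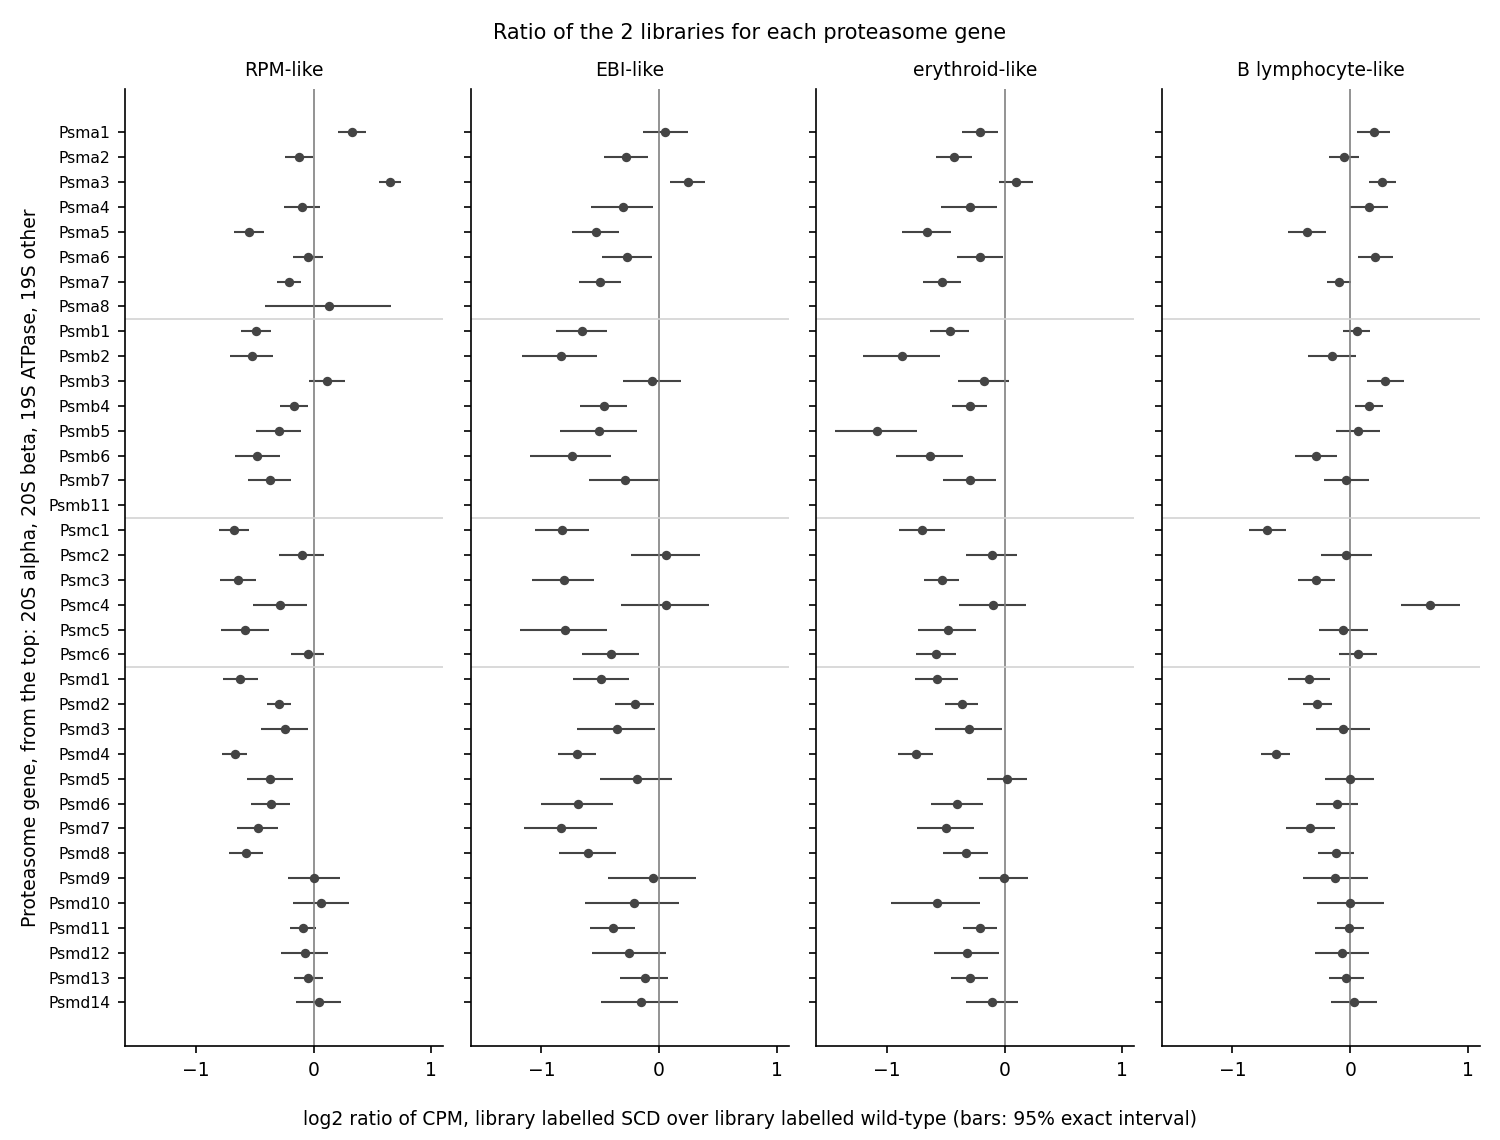
The log2 ratio of CPM, library labelled SCD over library labelled wild-type (x axis), for each subunit (y axis, grouped by part of the complex) in 4 classes, with bars for the 95% exact interval and without subunits of under 100 UMIs. Psmc1 and Psmd4 lie left of 0 in all 4 panels while Psma3 is the highest of the subunits in RPM-like, EBI-like and erythroid-like cells.

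Along the erythroid stages the proteasome sum in CPM spanned a wider range than between classes. The 5237 erythroid-like cells were ordered by the share of late marker UMIs (Bnip3l, Slfn14, Xpo7 and others) among late and early marker UMIs (Kit, Mki67, Top2a and others), and divided at indices of 0.504 and 0.972 into early, middle and late groups of equal size over both libraries. The groups are ranges of this index and not types, and 28.1% of the cells lay within 0.02 of a division. In the wild-type-labelled library the proteasome sum was at 4674 CPM (4639 to 4709) in the early, 3279 CPM (3245 to 3313) in the middle and 2724 CPM (2680.4 to 2767) in the late group. In the SCD-labelled library it was at 3813 CPM (3714 to 3914), 2365 CPM (2248 to 2485) and 1632 CPM (1537 to 1732). A cell of the early group held 42.8 proteasome UMIs on average in the wild-type-labelled library and a late cell 9.63, while the corresponding numbers in the SCD-labelled library were 34.5 and 6.68. The median depth was 8248 UMIs in early and 2424 in late cells of the wild-type-labelled library, so less RNA per cell and lower recovery from small cells cannot be told apart. The log2 ratio of early over late was 0.78 (0.75 to 0.80) in the wild-type-labelled library and 1.22 (1.13 to 1.32) in the SCD-labelled library.

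By subunit, 24 of 34 were higher in the early than in the late group by at least 1.5-fold in the wild-type-labelled library, where 38.6% of all genes were higher, and 0 were lower, where 28.0% of all genes were. The count was 23 of 27 in the SCD-labelled library, where 51.5% of all genes were higher, and 0 subunits were lower, where 23.5% of all genes were. The median log2 ratio was 0.81 over the subunits and 0.21 over all genes in the wild-type-labelled library, and 1.5 and 0.64 in the SCD-labelled library. The level was lower at each step, from early to middle and from middle to late, for 32 of 34 subunits in the wild-type-labelled library. In the SCD-labelled library this held for 28 of 31. The share of all genes lower at each step was not counted, so these counts have no background to be read against. With scran size factors the log2 ratio of the sum was 0.27 in the wild-type-labelled library and 0.39 in the SCD-labelled library, and the medians over the subunits and over all genes were 0.33 and -0.17 and 0.73 and -0.09. This scaling moved the median of all genes by -0.37 and -0.73. The subunits above 0 were then 27 of 34 and 20 of 27, and the share of all genes above 0 was not counted.

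**Figure D3:**
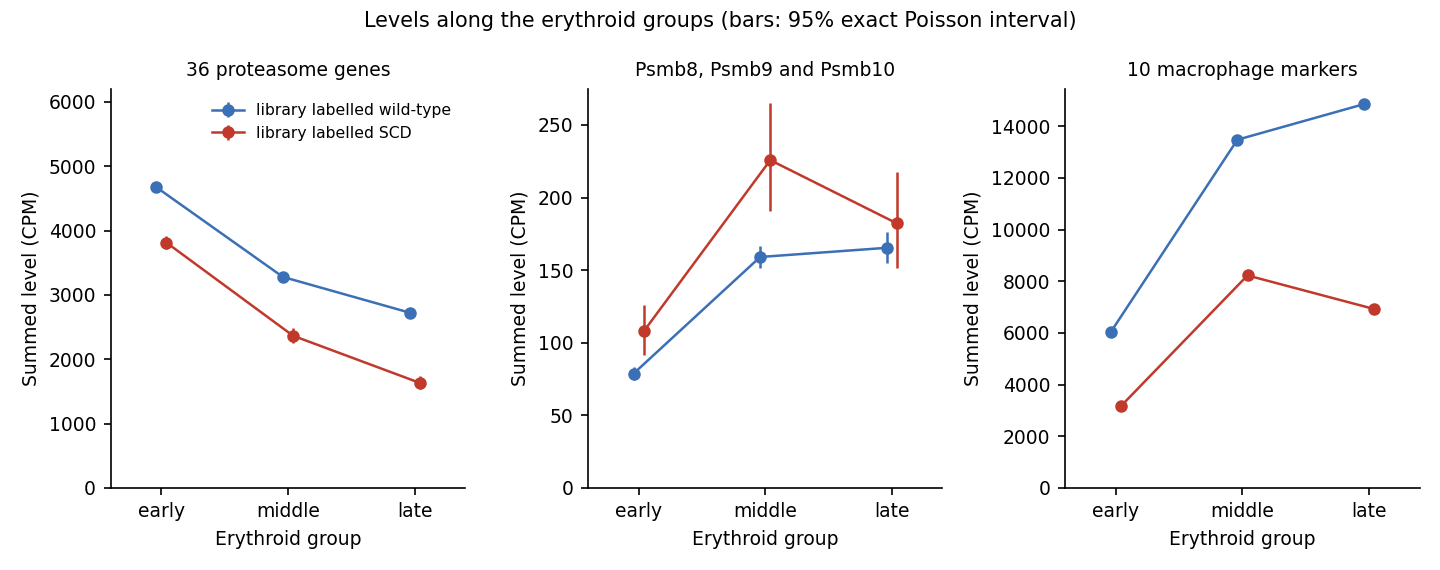
Summed levels (y axis, CPM, from 0) in the early, middle and late erythroid groups (x axis) for the 36 proteasome genes, the 3 immunoproteasome genes and 10 macrophage markers, by library, with bars for the 95% exact Poisson interval in the first 2 panels. The proteasome sum declines from 4674 to 2724 CPM and from 3813 to 1632 CPM, while the other sums are lowest in the early group.

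The genes that differed most between stages belonged to the regulatory particle. Psmd9 (ENSMUSG00000029440, chr5:123169413-123250131), an assembly chaperone, was at 113, 50.3 and 25.6 CPM in the early, middle and late groups of the wild-type-labelled library and at 112, 47.3 and 20.7 CPM in those of the SCD-labelled library. Its log2 ratio of early over late was 2.15 (1.90 to 2.41) and 2.44 (1.65 to 3.34). Psmd5 (ENSMUSG00000026869, chr2:34849734-34874968), another chaperone of the base, was at 158, 89.9 and 42.4 CPM and at 167, 88.5 and 26.7 CPM, with log2 ratios of 1.90 (1.70 to 2.10) and 2.65 (1.96 to 3.43). The ATPase Psmc3 (ENSMUSG00000002102, chr2:91054009-91066369) was at 284, 143 and 80.9 CPM and at 208, 88.5 and 26.7 CPM, with log2 ratios of 1.81 (1.67 to 1.95) and 2.96 (2.28 to 3.74). In all 3 genes the levels were ordered early, middle, late in both libraries. Psmd10, the third chaperone of the base, differed less, with 38.5, 33.8 and 23.1 CPM in the wild-type-labelled library (0.74, 0.46 to 1.03) and too few UMIs in the SCD-labelled library. Psmc6, another ATPase, was at 212, 131 and 82.3 CPM in the wild-type-labelled library and at 157, 67.1 and 37.0 CPM in the SCD-labelled library. The deubiquitinase Psmd14 was at 96.1, 56.8 and 32.0 CPM in the wild-type-labelled library and at 81.8, 73.2 and 23.7 CPM in the SCD-labelled library.

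Psmd4, Psma2 and Psmb2 had the lowest ratios of early over late in the wild-type-labelled library. Psmd4, which captures ubiquitin chains, was at 223, 212 and 274 CPM in the early, middle and late groups of the wild-type-labelled library and at 149, 108 and 132 CPM in those of the SCD-labelled library, log2 ratios of early over late of -0.29 (-0.38 to -0.20) and 0.17 (-0.19 to 0.55). The α subunit Psma2 was at 185, 159 and 189 CPM and at 145, 93.1 and 139 CPM, with log2 ratios of -0.03 (-0.14 to 0.07) and 0.05 (-0.30 to 0.42). With scran size factors Psmd4 and Psma2 were at -1.07 and -1.16 in the SCD-labelled library, so their direction there depended on the scaling. Psma2 shares its strand with the overlapping gene AW209491, so its counts are uncertain. Psmb2 had a ratio of 0.25 (0.05 to 0.45) in the wild-type-labelled library, which scran size factors turned to -0.15. In the SCD-labelled library the next lowest ratio was that of the α subunit Psma7, 0.31 (-0.09 to 0.72), or -0.10 with scran size factors. The other ubiquitin receptor, Psmd2, was at 254, 182 and 178 CPM and at 214, 137 and 93.3 CPM. Of the catalytic subunits, Psmb5 had a log2 ratio of 0.52 (0.32 to 0.73), Psmb6 of 0.56 (0.36 to 0.75) and Psmb7 of 0.86 (0.68 to 1.05) in the wild-type-labelled library.

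By part of the complex, the ATPases had the highest log2 ratio of early over late, 1.23 (1.16 to 1.29) in the wild-type-labelled library and 2.07 (1.78 to 2.37) in the SCD-labelled library. The other genes of the regulatory particle were at 0.77 (0.73 to 0.81) and 1.29 (1.14 to 1.43), the β subunits at 0.69 (0.63 to 0.75) and 1.23 (0.99 to 1.47), and the α subunits at 0.55 (0.50 to 0.60) and 0.72 (0.55 to 0.89), of which the latter turned to -0.07 with scran size factors. The order of the 4 parts in the wild-type-labelled library was therefore ATPases, other regulatory genes, β and α subunits, and in the SCD-labelled library the intervals of the β subunits and the other regulatory genes overlapped. Across the 27 subunits measured in both libraries, the log2 ratios of early over late had a Pearson correlation of 0.849, which is a description over genes and not over replicates.

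**Figure D4:**
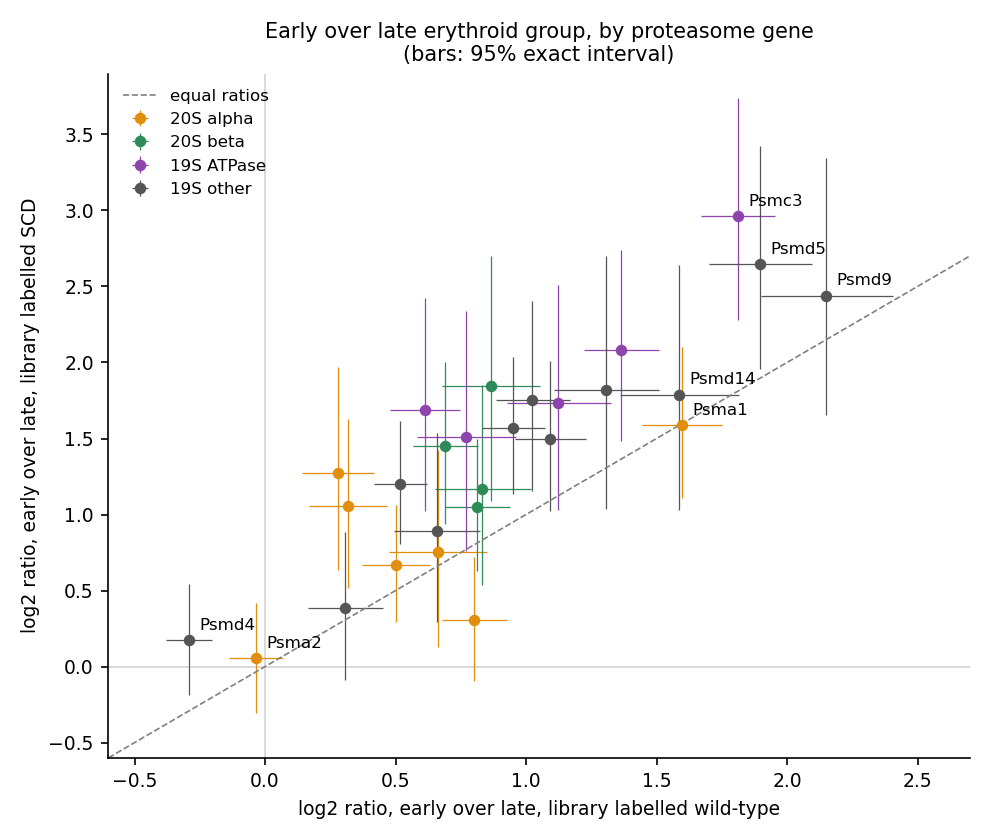
The log2 ratio of early over late erythroid group in the SCD-labelled library (y axis) against that in the wild-type-labelled library (x axis), 1 point for each of the 27 subunits with at least 100 UMIs in both, coloured by part of the complex, with 95% exact intervals. Psmd9, Psmd5 and Psmc3 lie at the upper right and Psmd4 and Psma2 near 0, and most points lie above the line of equal ratios.

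Macrophage RNA moved with the stages. The 10 red pulp macrophage markers were all found in each group and summed to 6032, 13481 and 14861 CPM in the early, middle and late groups of the wild-type-labelled library and to 3164, 8226 and 6924 CPM in those of the SCD-labelled library, against 27948 and 26706 CPM in RPM-like cells. RPM-like cells themselves had a proteasome sum of 2956 CPM in the wild-type-labelled library, which was above that of the late group, and of 2547 CPM in the SCD-labelled library. The erythroid-like clusters, examined one by one after their values were seen, held different amounts of it. The cluster led by Hemgn, Klf1 and Aqp1, with 6753 CPM of the early and 5115 CPM of the late marker list, held 7581 CPM of macrophage markers in the wild-type-labelled library, and the cluster led by Xpo7, Tmcc2 and Sowaha, with 866 and 35916 CPM of these lists, held 7395 CPM. Their proteasome sums were 4358 CPM (4329.6 to 4386) and 2883 CPM (2806 to 2962). The same clusters of the SCD-labelled library held 3910.2 and 3029 CPM of macrophage markers and proteasome sums of 3600.4 CPM (3514 to 3689) and 1240.2 CPM (1124 to 1366). The remaining late clusters held more macrophage RNA. The cluster led by Xpo7, Tmcc2 and Rsad2 had 17840 and 10285 CPM of these markers and proteasome sums of 2839 CPM (2797 to 2881) and 2013 CPM (1902 to 2130) in the wild-type-labelled and SCD-labelled libraries. The cluster led by Slfn14, Fbxo30 and Ypel4, with too few cells of the SCD-labelled library, had 16062 CPM of markers and a proteasome sum of 2520 CPM (2456 to 2585). The part of macrophage RNA in the stage values was not tested.

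The proteasome sum of early erythroid cells also stood above that of the macrophages of their own library. The log2 ratio of the sum, early erythroid group over RPM-like cells, was 0.66 (0.64 to 0.68) in the wild-type-labelled library and 0.58 (0.54 to 0.63) in the SCD-labelled library. That of the α subunits was 0.37 (0.34 to 0.40) and 0.07 (-0.02 to 0.15), the latter -0.11 as a mean share per cell. That of the ATPases was 1.01 (0.97 to 1.06) and 1.05 (0.95 to 1.16), and the other parts lay between. In the SCD-labelled library 28 of 34 subunits were above 0 and 6 below. By at least 1.5-fold, 20 of 35 subunits were higher and 1 lower in the wild-type-labelled library, where 28.8% of all genes were higher and 41.2% lower. In the SCD-labelled library 16 of 34 were higher and 0 lower, where 23.2% of all genes were higher and 49.6% lower. The lower gene was Psma8, at 1.24 CPM (18 UMIs) against 5.43 CPM. Psmd9 was at 113 CPM in the early group and 32.6 CPM in RPM-like cells of the wild-type-labelled library, and at 112 and 32.7 CPM in the SCD-labelled library. Psmd5 was at 158 and 48.8 CPM, and at 167 and 37.7 CPM. Psma5 was nearly level, at 124 and 127 CPM in the wild-type-labelled library (-0.04, -0.13 to 0.05), and so was Psmb2 (-0.09, -0.23 to 0.04).

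Within a stage the SCD-labelled library was lower, and the log2 ratio of the sum was -0.29 (-0.33 to -0.25) in the early, -0.47 (-0.55 to -0.40) in the middle and -0.74 (-0.83 to -0.65) in the late group. With scran size factors these ratios were -0.32, -0.29 and -0.43, so the order of the stages depended on the scaling. In the late group 8 of 34 subunits then lay above 0 in place of 2. The median over all genes there was 0.01 in place of -0.29, and the share of all genes above 0 was not counted. The intervals cover counting error in cells of 1 mouse. Of 34 subunits, 6 were lower by at least 1.5-fold in the early group (14.0% of all genes), 11 in the middle group (22.5%) and 22 in the late group (31.4%), and 0 were higher in any of them (5.17%, 11.2% and 7.73%). In the late group Psmc1 was at 100 CPM in the wild-type-labelled library and 31.1 CPM in the SCD-labelled library, Psmc3 at 80.9 and 26.7 CPM, and Psmb5 at 43.8 and 17.8 CPM. Psma3 was level at 109.5 and 109.6 CPM, and Psma7 was at 117 and 105 CPM. Hemoglobin took 3.56% of the UMIs of late cells in the wild-type-labelled library and 17.3% in the SCD-labelled library. Without hemoglobin in the total, the sums of the late group were 2824 and 1973 CPM.

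The immunoproteasome subunits, which replace the catalytic subunits in cells exposed to interferon, had a higher sum in the SCD-labelled library in each of the 8 classes compared. The log2 ratio of their sum was 0.61 (0.54 to 0.68) in RPM-like, 0.68 (0.56 to 0.81) in Ly6c-low and 0.52 (0.44 to 0.60) in Ly6c-high monocyte-like cells. It was 0.51 in mature DC-like, 0.45 in EBI-like, 0.43 in cDC2-like, 0.38 in B lymphocyte-like and 0.32 in erythroid-like cells. As a mean share per cell it was 0.09 in erythroid-like cells and -0.30 in the late erythroid group. With scran size factors it was 0.39 in RPM-like, 0.56 in EBI-like, 0.23 in erythroid-like and 0.19 in B lymphocyte-like cells. T lymphocyte-like cells (53 and 68), which were not among the 8 classes, went the other way. Their sum was at 454 CPM (357 to 570) in the wild-type-labelled and 347 CPM (273 to 436) in the SCD-labelled library, with overlapping intervals. Psmb9, the partner of Psmb6, was at 58.0 CPM in RPM-like cells of the wild-type-labelled library and 148 CPM in those of the SCD-labelled library, a log2 ratio of 1.35 (1.22 to 1.47). Its ratio was 1.24 (0.99 to 1.5) in Ly6c-low monocyte-like and 1.16 (0.96 to 1.35) in EBI-like cells. In RPM-like cells Psmb8, the partner of Psmb5, had a ratio of 0.23 (0.12 to 0.35) and Psmb10, the partner of Psmb7, one of 0.30 (0.16 to 0.43). The intervals of Psmb8 (0.10, -0.09 to 0.29) and Psmb10 (0.12, -0.11 to 0.35) included 0 in EBI-like cells. So did those of Psmb8 in erythroid-like cells (0.03, -0.23 to 0.27) and of Psmb10 in mature DC-like cells (0.28, -0.03 to 0.59). As a share of the UMIs of the pair, with exact binomial intervals, Psmb9 made up 51.4% (49.1 to 53.6%) of Psmb6 and Psmb9 in RPM-like cells of the wild-type-labelled library and 78.9% (76.7 to 81.0%) in those of the SCD-labelled library. In B lymphocyte-like cells these shares were 56.3% (53.1 to 59.4%) and 70.5% (68.5 to 72.3%). The pair of Psmb5 and Psmb8 differed less, with 68.6% (66.8 to 70.3%) and 75.9% (73.4 to 78.2%) for Psmb8 in RPM-like cells.

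Early erythroid cells had the lowest shares of immunoproteasome transcripts in each library. In the wild-type-labelled library Psmb8 made up 34.4% (31.9 to 37.0%) of its pair, Psmb9 23.0% (20.7 to 25.3%) and Psmb10 20.9% (19 to 22.9%). In late cells of that library the shares were 61.8% (57.9 to 65.6%), 45.8% (41.3 to 50.3%) and 51.4% (47.2 to 55.5%). The share of Psmb9 in the SCD-labelled library was 46.1% (37.2 to 55.1%) in early and 75.4% (62.2 to 85.9%) in late cells. The sum of the 3 immunoproteasome genes was at 78.7 CPM in early and 165 CPM in late cells of the wild-type-labelled library, moving in the direction of the macrophage markers. By cluster it was at 94.8 CPM in the wild-type-labelled and 129 CPM in the SCD-labelled library in the cluster led by Hemgn, Klf1 and Aqp1, and at 87.3 and 53.9 CPM in that led by Xpo7, Tmcc2 and Sowaha. In the clusters with more macrophage RNA it was at 200.2 and 283 CPM (led by Xpo7, Tmcc2 and Rsad2) and at 192 CPM in the wild-type-labelled library (led by Slfn14, Fbxo30 and Ypel4). The part of macrophage RNA in these levels was not tested.

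**Figure D5:**
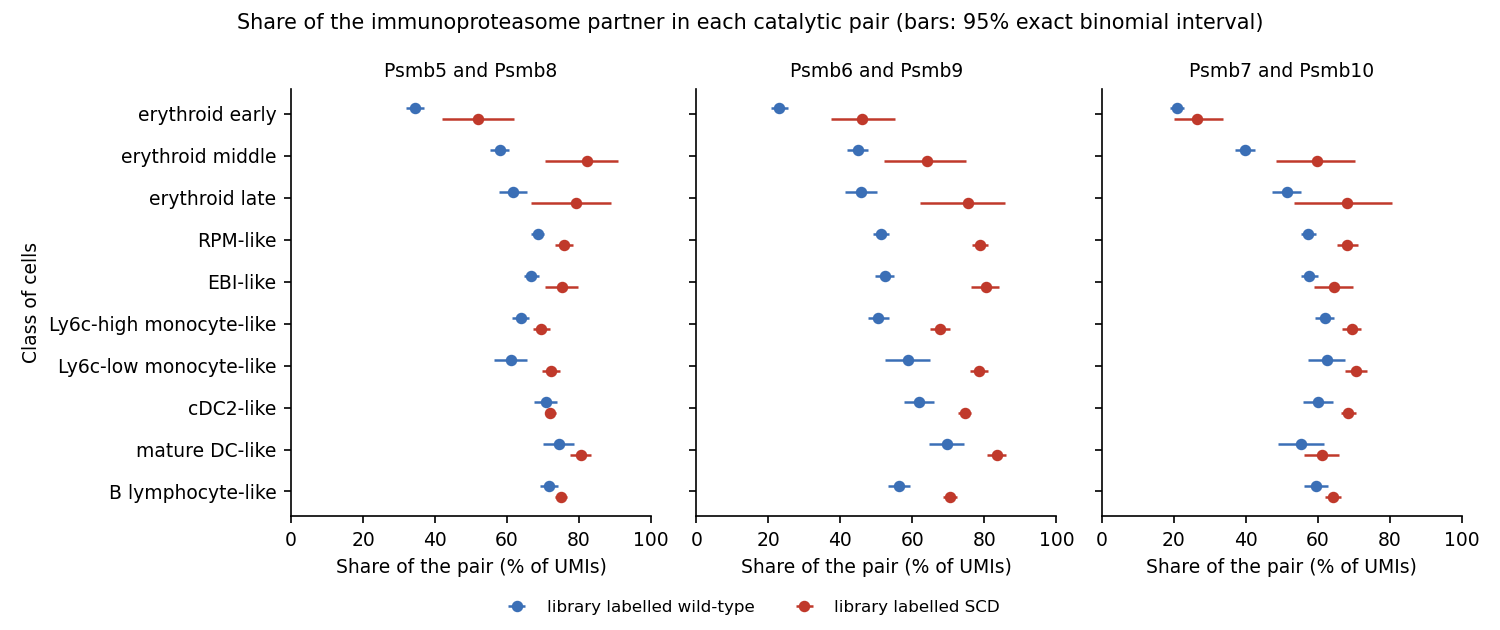
The share of the immunoproteasome partner among the UMIs of each catalytic pair (x axis, percent) by class (y axis) and library, with bars for the 95% exact binomial interval. Within each library the early erythroid group lies furthest left in each panel, and in RPM-like cells the libraries are furthest apart for Psmb6 and Psmb9.

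Of 24 further genes of the ubiquitin and proteasome pathway, 9 were higher in the early than in the late group by at least 1.5-fold and 3 lower in the wild-type-labelled library (38.6% and 28.0% of all genes), and 7 of 18 were higher and 2 lower in the SCD-labelled library (51.5% and 23.5%). These shares were below or near those of all genes. Psmg2, a chaperone of the 20S core, was at 45.5 and 10.9 CPM in early and late cells of the wild-type-labelled library, and the proteasome inhibitor Psmf1 at 168 and 52.3 CPM (1.69, 1.51 to 1.87). The deubiquitinases of the regulatory particle were also higher early, with 67.2 and 21.5 CPM for Uchl5 and 182 and 97.7 CPM for Usp14, as was the ubiquitin receptor Adrm1 with 53.6 and 21.8 CPM. Ddi2, the protease that cuts NFE2L1 to its active form, was at 217 and 76.6 CPM, and Nfe2l1 itself at 85.4 and 137 CPM (-0.68, -0.81 to -0.55). In the SCD-labelled library Nfe2l1 was at 47.0 and 57.8 CPM (-0.30, -0.88 to 0.31), an interval that includes 0. RPM-like cells of the wild-type-labelled library held 229 CPM of Nfe2l1, and the part of macrophage RNA in its late level was not tested. Psme3, the nuclear activator of the core, was lower early, at 329 and 873 CPM in the wild-type-labelled library and 316 and 881 CPM in the SCD-labelled library. The ubiquitin gene Ubb was at 64.7 and 218 CPM and at 71.6 and 530.2 CPM. Between the libraries, 0 of the 24 pathway genes passed 1.5-fold in RPM-like cells (24.0% of all genes higher and 9.49% lower), and the median of their log2 ratios was -0.05.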

How the data were processed

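Splenic cells bound by F4/80 beads from 1 mouse per condition were profiled with a 3′ droplet kit. The deposited values are raw UMI counts per gene and barcode. The authors aligned the reads to the mouse genome (GRCm38.p6 in the submitters' processing notes), counted UMIs and removed empty droplets with Cell Ranger, whose version is 4.0.0 in those notes and 3.1.0 in the file headers.

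A cell was kept when it had 500 to 5000 genes and mitochondrial UMIs made up less than 15% and ribosomal UMIs less than 30% of its total. Genes seen in 20 cells or more entered the clustering. Cells were scaled with scran 1.30.0 (R 4.3.3) before both libraries were clustered together with scanpy 1.11.5 (2000 variable genes, 30 principal components, 15 neighbours, Leiden resolution 1). A cluster was named when at least 3 markers of a list were found in at least 10% of its cells, with the median of the macrophage and of the erythroid list at least 2 times that of the main B lymphocyte cluster, and the other lists 2 times the remaining cells. These limits were set after the clustering was seen. Clusters with as many or more markers of another type among the 10 leading genes stayed unnamed. Doublets were kept, since the automatic call of Scrublet marked 0 cells of the wild-type-labelled library and 13.6% of the other, and an alternative removed 1941 and 1670 cells.

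Levels are CPM of the UMIs summed over a class in a library, with 3′ counts not scaled by length, so levels were compared within a gene. Ratios are on the log2 scale without a pseudocount, for genes with at least 100 UMIs over both groups. A fold of at least 1.5 was counted and set beside the share of all genes past it. Erythroid-like cells with at least 5 marker UMIs were ordered by stage. No test was run between conditions.

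The members and lists were chosen with earlier results of these data known. Named throughout were the catalytic, tissue-restricted, receptor, deubiquitinase and chaperone subunits, the 3 highest and lowest ratios in RPM-like, EBI-like and erythroid-like cells and between early and late groups, the 2 widest and narrowest ranges over classes, the immunoproteasome genes, a pathway list of 24, an erythroid ubiquitin list of 5, and the 5 genes most like the sum. The ratio calculation was tested on simulated data. Genome annotation was GENCODE M21, and gene starts were those of RefSeq. Alternatives were doublet removal, totals without hemoglobin, the mean share per cell, scran scaling, other resolutions, separate clustering, proteasome genes in the clustering, stages by cluster, a minimum of 200 genes and of 1 UMI.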

Additional observations from a re-analysis of the deposited data

How the results depend on the processing

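Of 59 alternative values of the sums, 35 lay outside the counting interval of the value reported, 24 within it and 0 had the opposite sign. The 3 medians over subunits, which have no such interval, were at -0.24 in RPM-like, -0.36 in EBI-like and -0.37 in erythroid-like cells with a minimum of 1 UMI. For the log2 ratio of the proteasome sum between the libraries, the values outside were, without doublets, -0.34 in erythroid-like cells, without hemoglobin, -0.22 in EBI-like and -0.25 in erythroid-like cells, and with the mean share per cell, -0.20 in all cells, -0.24 in RPM-like, -0.48 in EBI-like and -0.50 in erythroid-like cells. With scran size factors they were -0.41, -0.44, -0.27 and -0.33 in the same order. At resolution 0.5 the erythroid-like cells were at -0.30. EBI-like cells were at -0.32 with libraries clustered separately and -0.34 with proteasome genes in the clustering. With a minimum of 200 genes, all cells were at -0.24, EBI-like cells, then only 54 in the SCD-labelled library, at -0.15, and erythroid-like cells, then 1895 in that library, at -0.66. For early over late, the values outside were 0.83 and 1.4 without doublets (library labelled wild-type, then SCD), 1.07 without hemoglobin (SCD), 0.81 with the mean share (wild-type), 0.27 and 0.39 with scran size factors, 1.45 at resolution 0.5 (SCD), 0.75 at resolution 2 (wild-type), 0.65 and 1.06 with stages by cluster, and 0.71 and 1.46 with a minimum of 200 genes. A pair of alternatives was chosen after seeing the data. A macrophage marker limit of 4 gave -0.24 in RPM-like cells, with 61 cells left in the wild-type-labelled library. Cells of at least 3000 UMIs gave -0.24 in all, -0.19 in RPM-like and -0.32 in EBI-like cells, and 0.73 and 1.13 for early over late. Beyond the changes of cell numbers named, the cause was not tested. No paired analysis was possible because each condition is 1 library and no result comes from a test. Depth limits single subunits in the late group of the SCD-labelled library, where 27 subunits had enough UMIs over the early and late groups.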

Other observations

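An unnamed cluster of 203 cells of the wild-type-labelled library, led by the granule protein genes Mpo, Prtn3 and Elane, had a proteasome sum of 4797 CPM (4709 to 4886), above each named class of that library. These cells also held 4078 CPM of the early erythroid list, which contains genes of the cell cycle, and their median depth was 11902 UMIs. The cluster was singled out after its value was seen.

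Ubiquitin genes of the erythroid program, taken as a list of 5, went in both directions. Ubac1, a subunit of a ubiquitin ligase, was at 747 and 135 CPM in early and late cells of the wild-type-labelled library and at 785 and 130.3 CPM in the SCD-labelled library. Rnf123, its partner in the same ligase, was at 234 and 138 CPM and at 254 and 97.8 CPM. Ube2o, which marks ribosomal proteins for removal in reticulocytes, was at 207 and 1796 CPM and at 170.5 and 1477 CPM, log2 ratios of early over late of -3.12 (-3.18 to -3.06) and -3.11 (-3.32 to -2.91). Ube2l6 and Trim58 were among the late markers that set the order of the cells, so their levels are not a result.

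Over 19 units, each a class in 1 library, the genes outside the list whose log2 CPM followed the proteasome sum most closely among 7652 genes were Rps27l (Pearson r = 0.898), Atp5mpl (0.892), Ndufa11 (0.885), Map2k2 (0.856) and Eif3d (0.853). The units share 2 libraries and their free RNA, so this is a description. The subunits themselves had a median r of 0.594 with the sum, which includes each of them, from -0.179 for Psma3 to 0.862 for Psmb4, and 8 of 34 were among the 100 genes with the highest r. The median over all genes was 0.0863.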
